A study of Mus musculus with 9 samples.

Results

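The comparison described here set tumours grown from the mouse mammary carcinoma line 4T1 against those grown from the related lines 67NR and 66cl4. It used all 9 arrays of the series, 3 from 4T1, 3 from 67NR and 3 from 66cl4 tumours. Each array came from 1 female BALB/c mouse aged 7 to 9 weeks. The mice had received 1000000 viable 67NR/CMVLUC, 66cl4/CMVLUC or 4T1/CMVLUC cells in the fourth mammary gland on the right side, and the primary tumour was taken on day 15. RNA came from the tumour part of laser capture microdissected sections. All groups thus carried a construct named CMVLUC, none was an untreated or tumour-free control, and each group stands for 1 cell line, so that a difference belongs to these lines and not to a class of tumours. A gene was taken to set 4T1 apart when 4T1 differed from 67NR and from 66cl4 in the same direction, and its size is given by the smaller of both differences. Values are log2 signals, on which a difference of 1 is a doubling.

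The 3 lines descend from a single spontaneous mammary tumour of a BALB/c mouse and are used as models of tumours that differ in metastatic spread, with 4T1 the most widely spreading. Epithelial cells are held together by adherens junctions built on E-cadherin, by tight junctions sealed with claudins and by desmosomes anchored to keratin filaments. Zeb, Snail and Twist factors repress many of the genes for these structures, and cells in which they act take up mesenchymal features such as N-cadherin. The study compared the tumours to ask about this epithelial-mesenchymal transition in metastasis.

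Of all genes with a single symbol, 1069 were set higher in 4T1 than in both other lines (5.88%) and 1058 were set lower (5.82%), at an adjusted p under 0.05. Over all 45037 probe sets it was 1980 (4.4%) and 1812 (4.02%). The size was at least 1 for 552 of the genes set higher (3.03% of all genes) and for 340 of those set lower (1.87%). It was at least 2 for 205 and 82 of them, and at least 4 for 40 and 6. Large differences were thus mostly higher signals in 4T1. All 4T1 values lay above those of the 6 other arrays for 10.2% of all genes and below them for 11.6%. The genes set apart were chosen by these same values, so that 1068 of the 1069 set higher and 1058 of the 1058 set lower lay outside that range follows nearly from the rule. In the plain contrast of 4T1 with the mean of both other lines, 2413 genes were higher (13.3%) and 2862 lower (15.7%). For 343 of these the 4T1 mean lay between those of the other lines. 67NR and 66cl4 also differed from each other for 287 of the genes set higher and 303 of those set lower.

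**Figure D1:**
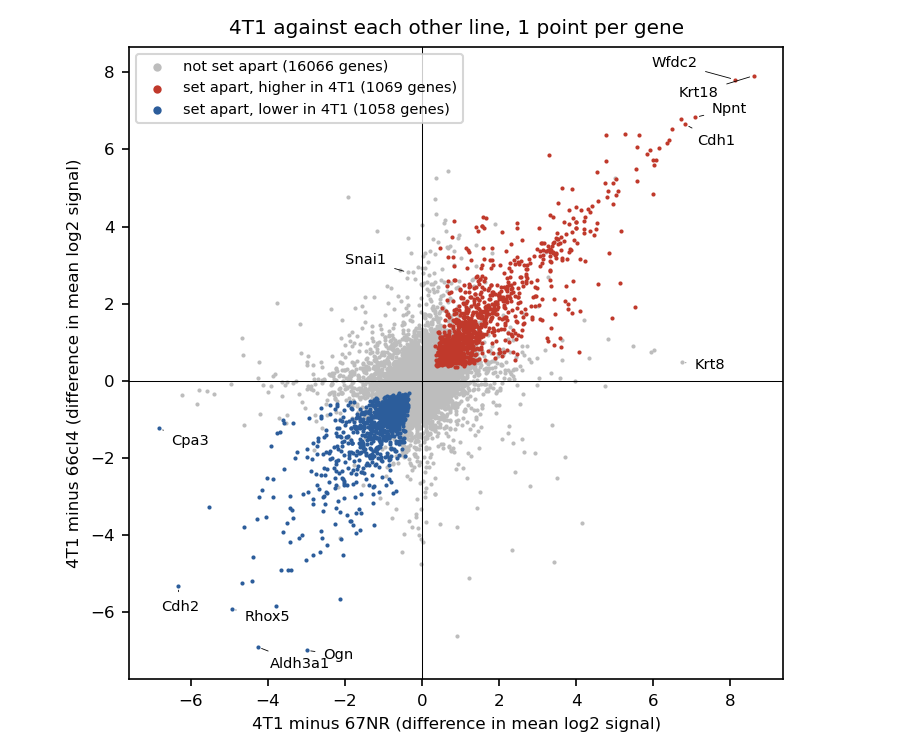
Difference in mean log2 signal between 4T1 and 67NR (horizontal) and between 4T1 and 66cl4 (vertical) for each gene, 3 arrays per line, with the genes set apart in colour. The axes share the 4T1 arrays, which by itself makes points follow the diagonal. Red points (1069 genes set higher) reach further from 0 than blue points (1058 set lower), while Krt8 lies near 0 on the vertical axis and Snai1 near 0 on the horizontal one.

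The arrays differed in a way that runs with the lines. The spiked hybridization controls had a mean log2 signal of 10.46 ± 0.22 on the 4T1 arrays, 10.86 ± 0.23 on the 66cl4 arrays and 11.16 ± 0.30 on the 67NR arrays (SD, n = 3). The number in the name of the scan file was higher for every 67NR array than for any other and overlapped between 4T1 and 66cl4, and what it counts is not stated. Fitting the scan file number as a covariate left 488 genes set higher and 294 lower, 469 and 277 of them among the genes above. With the mean of the hybridization controls as a covariate, 2.07% of all genes were set higher and 1.22% lower, 369 and 217 of them among the genes above. Without any single array, 821 to 1100 genes were set higher and 771 to 918 lower. Counts under both covariates are given beside the main gene groups below, and the part of the array differences in each result was not tested beyond that. Both covariates run in part with the lines, so fitting them also widens the errors. A lost call is therefore not by itself a smaller difference. The labels do not say which arrays were processed together.

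Several genes of simple epithelium were among those with the largest differences. Krt18, a keratin of simple epithelia on chromosome 15, had log2 signals of 13.50, 13.31 and 13.34 on the 4T1 arrays, 4.22, 5.29 and 4.80 on the 67NR arrays and 5.50, 5.0 and 5.91 on the 66cl4 arrays. All 4T1 values lay far above the others, which were close to background, the highest bacterial control signal of each array (4.83 to 5.08). The smaller difference was 7.92 ± 0.27 (SE, 3 mice per line, adjusted p = 1.1e-07). Wfdc2, whose secreted product is related to whey acidic protein, gave 13.02, 12.99 and 12.89 in 4T1, 4.56, 4.79 and 5.18 in 67NR and 5.27, 5.25 and 4.92 in 66cl4 tumours. Its smaller difference was 7.82 ± 0.16 (adjusted p = 6.33e-09). Cldn4, a claudin of tight junctions, was at 12.11, 11.46 and 10.75 in 4T1 against 5.35 to 5.92 in the 6 other tumours, and its lowest 4T1 value still lay far above them (smaller difference 5.85 ± 0.29, adjusted p = 1.26e-06). Lad1, which encodes ladinin, an anchoring filament protein of epithelial basement membranes, was higher by 5.49 ± 0.14 (adjusted p = 2.25e-08).

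Other epithelial genes had signal above background in 4T1 tumours alone. Over all genes this held for 98 (0.539%), all 3 of the 4T1 arrays lying above the background of the array and none of the 6 others. Their difference is given as a bound, the 4T1 mean against the mean background of the other arrays, since the true level in the other lines is unknown. Cdh1, which encodes E-cadherin, had log2 signals of 10.91, 10.76 and 11.11 in 4T1, 3.99, 4.37 and 3.92 in 67NR and 4.45, 4.38 and 4.00 in 66cl4 tumours. It was at least 63.4-fold higher in 4T1 (adjusted p = 2.09e-08). Krt7, another keratin of simple epithelia, gave 11.57, 11.18 and 10.85 in 4T1 against 4.47 to 4.91 in the others and was at least 76.6-fold higher. Esrp1, a splicing factor of epithelial cells, gave 9.68, 9.37 and 9.22 against 3.28 to 3.90, at least 22.3-fold higher. The nephronectin gene Npnt was at least 48.1-fold higher, Cldn7 at least 40.5-fold, the FGF-binding protein gene Fgfbp1 at least 29.4-fold, Tmprss11e, a transmembrane serine protease, at least 28.7-fold, and Perp, which encodes a desmosome-associated membrane protein, at least 27.6-fold. The surface protein gene Cdcp1 was at least 16.9-fold higher. A bound holds for the probe set used, and the other Npnt probe sets differed by 1.97 to 6.03.

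Counted by list, adherens and tight junction genes were set higher in 4T1 for 14 of 26 measured members and lower for 1, with a median difference from the mean of both lines of 0.88, against -0.01 over all genes. Desmosome and hemidesmosome genes were set higher for 8 of 17 and lower for 0 (median 1.31, or 1.19 with lines at background set to that level). Among them Dsp (desmoplakin) and Dsg2 (desmoglein 2) rose at least 19.9-fold and 22-fold, and Lama3 and Lamb3, chains of the laminin below epithelial cells, at least 17.7-fold and 19-fold. Epithelial regulators were set higher for 13 of 24 (median 1.54, or 1.37 at background). They included the membrane protease gene St14 by 3.83 ± 0.16, the gene of its inhibitor Spint1 by 4.14 ± 0.19 and the transcription factor gene Grhl2 by 2.28 ± 0.18. Of 15 keratins 4 were set higher, Krt7, Krt18, Krt14 and Krt19 (median 0.25, or 0.06 at background). Over all genes 5.88% were set higher and 5.82% lower, the shares to hold beside each list count here and below. With the scan file number and with the hybridization controls as a covariate, junction genes kept 9 and 9 calls, desmosome genes 6 and 6, epithelial regulators 11 and 10 and keratins 4 and 4. Cdh1, Krt18, Cldn4, Esrp1 and Grhl2 were called with either covariate.

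Members of these lists also went against the rest. Tjp1, the tight junction scaffold ZO-1, was set lower in 4T1 by 0.95 ± 0.14, with 9.71, 9.47 and 9.31 against 10.26 to 10.71 in the 6 other tumours (adjusted p = 0.00247, but 0.0511 with the scan file number). Klf4, a transcription factor of differentiated epithelium, was lower too, with 7.25, 8.03 and 7.93 against 9.91 to 10.81, a smaller difference of -2.24 ± 0.24 (adjusted p = 0.000248). Krt8, the usual partner of Krt18, was not set apart. Its signals were 13.47, 13.29 and 13.69 in 4T1 and 13.08, 13.17 and 12.78 in 66cl4 but 6.70, 6.94 and 6.58 in 67NR tumours, so that 4T1 and 66cl4 nearly met (difference 0.47 ± 0.15, adjusted p = 0.0952). For Epcam, an epithelial adhesion gene on chromosome 17, the brighter probe set was higher by 1.07 ± 0.19 (adjusted p = 0.00636). That call ended with the scan file number (adjusted p = 0.519) and with the hybridization controls (adjusted p = 0.491). The other Epcam probe set had means of 12.11 in 4T1, 4.70 in 67NR and 4.83 in 66cl4 tumours and was higher by 7.28 (adjusted p = 7.19e-08).

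**Figure D2:**
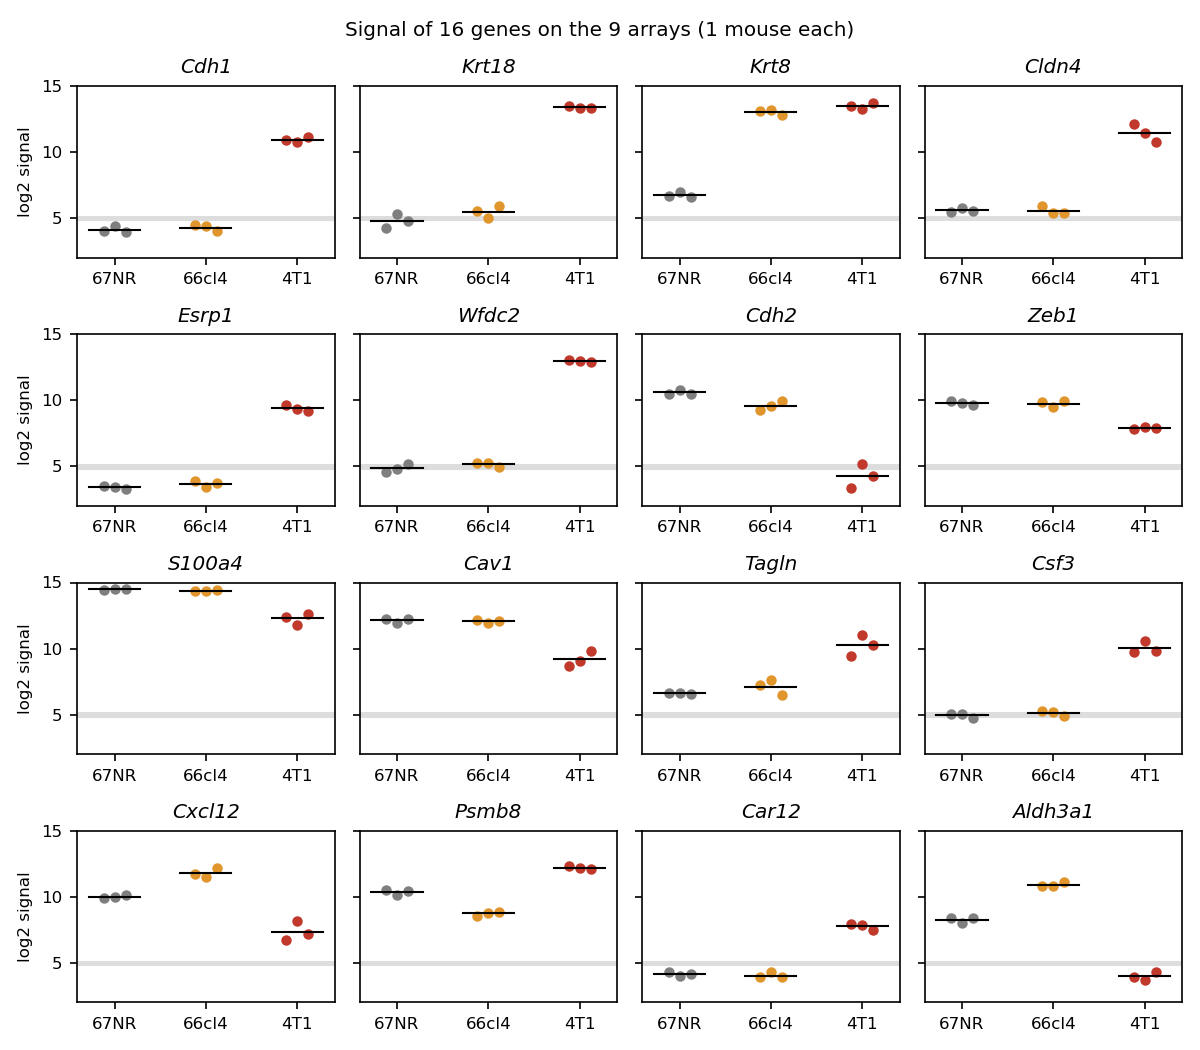
Log2 signal of 16 genes on each of the 9 arrays, 1 point per mouse and a line at the mean of 3 mice, with the background range of the arrays (4.83 to 5.08) as a grey band. Cdh1, Krt18, Cldn4, Esrp1 and Wfdc2 are high in 4T1 alone, Krt8 is high in 4T1 and 66cl4, and Cdh2, Zeb1, S100a4, Cav1, Cxcl12 and Aldh3a1 are lower in 4T1 than on every other array.

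The repressors Snail, Slug and the Zeb proteins are known to bind E-box motifs in promoters of epithelial genes, which is why promoters of the genes set higher are shown. The windows run from 250 bases before to 50 bases after the transcription start, on the strand of the gene, in RefSeq's annotation of assembly GRCm38.p6. Capitals mark CAGGTG or, on the other strand, CACCTG. A match is a description of the letters and not of binding. Krt18, Wfdc2, Tnnt2 and Npnt are shown as leading genes of the comparison, Epcam, Cldn4, Ap1m2, Rab25 and Spint2 as epithelial genes with a match near the start, and Cldn7, like Npnt, as one without a match.
Krt18 (chr15:102027966-102028265, plus strand): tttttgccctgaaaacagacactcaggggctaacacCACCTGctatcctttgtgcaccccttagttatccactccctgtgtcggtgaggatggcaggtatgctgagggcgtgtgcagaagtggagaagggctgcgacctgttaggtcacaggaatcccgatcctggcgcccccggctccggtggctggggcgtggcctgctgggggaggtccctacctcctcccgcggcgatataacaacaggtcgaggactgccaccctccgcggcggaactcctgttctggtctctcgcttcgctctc
Wfdc2 (chr2:164562465-164562764, plus strand): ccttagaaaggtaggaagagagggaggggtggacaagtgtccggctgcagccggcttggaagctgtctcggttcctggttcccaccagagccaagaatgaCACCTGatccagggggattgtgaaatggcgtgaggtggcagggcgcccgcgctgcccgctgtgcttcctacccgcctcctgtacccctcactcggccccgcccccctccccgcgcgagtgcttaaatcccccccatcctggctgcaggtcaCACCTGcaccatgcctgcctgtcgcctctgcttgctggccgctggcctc
Tnnt2 (chr1:135836084-135836383, plus strand): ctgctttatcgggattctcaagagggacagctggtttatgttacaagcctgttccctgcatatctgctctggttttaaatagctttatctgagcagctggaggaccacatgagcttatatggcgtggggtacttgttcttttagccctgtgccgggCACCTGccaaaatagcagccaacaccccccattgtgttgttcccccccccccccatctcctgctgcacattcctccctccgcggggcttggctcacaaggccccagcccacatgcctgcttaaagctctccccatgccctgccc
Epcam (chr17:87635729-87636028, plus strand): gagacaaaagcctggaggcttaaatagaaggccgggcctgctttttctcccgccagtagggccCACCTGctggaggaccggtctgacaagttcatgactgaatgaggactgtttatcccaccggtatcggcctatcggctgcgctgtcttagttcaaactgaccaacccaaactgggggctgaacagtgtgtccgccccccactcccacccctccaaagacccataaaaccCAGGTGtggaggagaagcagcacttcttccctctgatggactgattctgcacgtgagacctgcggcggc
Cldn4 (chr5:134946885-134947184, minus strand): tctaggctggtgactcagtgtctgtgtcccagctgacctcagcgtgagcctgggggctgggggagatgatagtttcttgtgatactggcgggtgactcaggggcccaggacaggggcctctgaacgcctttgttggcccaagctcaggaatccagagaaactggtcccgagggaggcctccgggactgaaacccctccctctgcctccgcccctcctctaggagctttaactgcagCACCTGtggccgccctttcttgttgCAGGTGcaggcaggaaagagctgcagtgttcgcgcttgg
Ap1m2 (chr9:21312284-21312583, minus strand): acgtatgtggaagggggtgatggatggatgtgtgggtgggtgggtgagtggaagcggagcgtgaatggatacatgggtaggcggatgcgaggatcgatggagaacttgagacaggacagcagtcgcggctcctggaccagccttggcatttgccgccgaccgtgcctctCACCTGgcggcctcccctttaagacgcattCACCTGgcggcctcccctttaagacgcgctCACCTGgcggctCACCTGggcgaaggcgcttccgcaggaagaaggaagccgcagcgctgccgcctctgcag
Rab25 (chr3:88548230-88548529, minus strand): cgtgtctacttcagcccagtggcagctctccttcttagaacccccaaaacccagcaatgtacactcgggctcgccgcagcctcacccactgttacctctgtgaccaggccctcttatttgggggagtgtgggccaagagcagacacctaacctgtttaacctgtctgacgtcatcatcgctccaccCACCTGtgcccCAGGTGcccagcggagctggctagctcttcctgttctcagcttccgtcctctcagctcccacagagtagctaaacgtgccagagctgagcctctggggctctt
Spint2 (chr7:29281928-29282227, minus strand): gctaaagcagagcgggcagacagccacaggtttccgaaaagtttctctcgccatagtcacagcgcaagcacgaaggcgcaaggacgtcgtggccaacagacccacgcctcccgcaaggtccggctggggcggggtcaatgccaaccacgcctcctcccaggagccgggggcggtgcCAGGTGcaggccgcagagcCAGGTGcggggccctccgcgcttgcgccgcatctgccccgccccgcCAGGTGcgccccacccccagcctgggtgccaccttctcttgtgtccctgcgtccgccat
Npnt (chr3:132950242-132950541, minus strand): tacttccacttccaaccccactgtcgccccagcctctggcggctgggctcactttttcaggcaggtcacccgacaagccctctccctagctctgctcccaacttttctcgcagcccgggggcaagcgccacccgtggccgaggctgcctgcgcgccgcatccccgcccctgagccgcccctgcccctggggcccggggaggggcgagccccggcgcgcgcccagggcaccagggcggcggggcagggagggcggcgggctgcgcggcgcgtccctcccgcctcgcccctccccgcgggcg
Cldn7 (chr11:69964529-69964828, plus strand): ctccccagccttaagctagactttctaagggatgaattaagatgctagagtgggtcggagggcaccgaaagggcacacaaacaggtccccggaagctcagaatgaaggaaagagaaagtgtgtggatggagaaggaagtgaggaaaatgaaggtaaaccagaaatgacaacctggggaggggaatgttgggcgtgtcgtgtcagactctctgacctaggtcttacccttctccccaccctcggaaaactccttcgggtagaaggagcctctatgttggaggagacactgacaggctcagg

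The motif stood in the promoter windows of 17 of the 24 genes that the 4 epithelial lists set higher and that had a window (70.8%), against 2829 of 14368 measured genes with one (19.7%) and 5413 of all 27025 windows. These 24 were kept because they were set higher. The share among list members not set higher was not counted, and a link between the motif and the differences was not tested. Ap1m2, a sorting adaptor subunit of polarised cells, held 4 matches between 81 bases before and the start itself. Spint2, an inhibitor of membrane proteases, held 3 in the 74 bases before the start, and Rab25, a small GTPase of epithelial recycling, held 2. The 7 list windows without a match were those of Cldn7, Jup, Krt14, Gata3, Spint1, Lamb3 and Fxyd3. Npnt and Fgfbp1, which lie outside this count, had none either. Over all genes set higher in 4T1, 236 of 795 windows held the motif (29.7%). The share was 32.9% for those set higher by at least 1 and 38.8% for those by at least 2. It was 28.4% for the genes outside the epithelial lists, 15.8% for genes set lower, 41.2% (28 of 68) for genes detected in 4T1 alone and 6.25% (3 of 48) for those detected in the other lines alone. With the scan file number or the hybridization controls as a covariate the share among genes set higher was 31.4% and 33.3%. Other E-box letters differed little between genes set higher and all measured genes, with CAGCTG in 15.3% and 16.1% and CACGTG in 8.43% and 9.04%. In the epithelial lists CAGCTG stood in 20.8% (5 of 24) and CACGTG in 8.33% (2 of 24) of the windows. For genes detected in 4T1 alone the shares were 23.5% (16 of 68) and 4.41% (3 of 68). The letters AACCGG, bound by Grainyhead factors, or CCGGTT were found in 9.69% of the windows of genes set higher and 9.37% of all. They were found in 6.33% of the windows of genes set higher by at least 1, in 3.6% of those by at least 2, in 4.17% (1 of 24) of those of the epithelial lists and in 4.41% (3 of 68) of those detected in 4T1 alone. Windows of genes set higher had a median GC content of 61.7% against 58.7% over all measured genes. When windows were split by low, middle and high GC content, 22.5%, 34.5% and 29.2% of the windows of genes set higher held CAGGTG, against 19.0%, 21.3% and 18.7% of all. The tables used here matched no window for Cdh1, Esrp1, Perp, Dsg2 or Grhl2.

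Genes lower in 4T1 than in both other lines were led by N-cadherin. Cdh2 had log2 signals of 3.33, 5.16 and 4.26 in 4T1 against 10.51, 10.76 and 10.50 in 67NR and 9.29, 9.56 and 9.91 in 66cl4 tumours. The 4T1 values lay at or near background and far below all others. The smaller difference was -5.33 ± 0.37 (adjusted p = 1.28e-05), and the other probe set gave -4.60 (adjusted p = 4.33e-07). Rhox5, an X-linked homeobox gene, was at 5.13, 5.82 and 6.80 in 4T1 against 10.83 to 11.86 (smaller difference -4.94 ± 0.32, adjusted p = 7.68e-06). The guidance factor gene Sema5a was lower by 4.40 ± 0.20 and the adhesion gene Cadm1 by 4.38 ± 0.33. Of the 60 genes above background on all 6 other arrays and on no 4T1 array (0.33%), the cytochrome oxidase subunit gene Cox7b2 was at least 10.2-fold lower in 4T1. Bdh2, a short-chain dehydrogenase, was at least 5.13-fold lower, and Lrig3, a membrane protein with leucine-rich repeats, at least 3.03-fold.

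Of 18 measured transcription factors tied to the epithelial-mesenchymal transition, 2 were set lower in 4T1 and 1 higher (median -0.56). Beside 5.82% and 5.88% of all genes, so few calls do not single these factors out. In the plain contrast with the mean of both lines, 8 were lower and 3 higher, beside 15.7% and 13.3% of all genes. Zeb1 had signals of 7.85, 7.94 and 7.90 in 4T1 against 9.47 to 9.92 in the others, with no overlap (smaller difference -1.85 ± 0.13, adjusted p = 1.65e-05). That call rests on its brightest probe set. None of the other Zeb1 probe sets was set apart, with -0.41, -0.80 and -0.20 (adjusted p = 0.126, 0.374 and 0.925). The last of them was above background on no array. Twist1 was lower by 0.55 ± 0.12 (adjusted p = 0.0214), a call that ended with either covariate and when any of the 67NR arrays, 4T1 replicate 2 or 4T1 replicate 3 was left out. Foxc2 was higher, at 9.07, 8.58 and 7.76 against 3.80 to 5.09 (smaller difference 3.40 ± 0.31, adjusted p = 0.0001). For Zeb2 the brightest probe set missed the threshold (-1.23 ± 0.39, adjusted p = 0.101), while 2 of its others were lower by 1.01 (adjusted p = 0.0102) and 1.35 (adjusted p = 0.00411). Snai2 (-1.05 ± 0.32, adjusted p = 0.0786) missed it as well, although without 4T1 replicate 2 it passed. Snai1 was at 7.97, 8.14 and 7.40 in 4T1, near the 8.0 to 8.42 of 67NR and above the 4.67 to 5.31 of 66cl4 tumours, so it did not set 4T1 apart.

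Mesenchymal genes went both ways, 11 of 29 set higher and 4 set lower, beside 5.88% and 5.82% of all genes. Those lower were Cdh2, the myosin kinase gene Mylk by 2.26 ± 0.15, the calcium-binding protein gene S100a4 by 2.06 ± 0.18 and the PDGF receptor gene Pdgfra by 1.65 ± 0.22. S100a4 gave 12.41, 11.81 and 12.63 in 4T1 against 14.32 to 14.54 in the 6 others. Those higher included contractile and matrix genes. Tagln, an actin-binding protein of smooth muscle, was at 9.44, 11.05 and 10.25 in 4T1 against 6.51 to 7.60 (smaller difference 3.12 ± 0.37, adjusted p = 0.000514). Tnc, the matrix glycoprotein tenascin C, was at 11.49, 12.66 and 12.06 against 5.71 to 8.25 (3.89 ± 0.51, adjusted p = 0.000972). Acta2, the smooth muscle actin of contractile stromal and myoepithelial cells, gave 10.51, 11.95 and 11.47 against 9.13 to 9.84 (1.66 ± 0.31, adjusted p = 0.00814). In each of these 3 genes 4T1 replicate 1 was the lowest and replicate 2 the highest of the 4T1 arrays. With the scan file number 3 of the list remained set higher and with the hybridization controls 5, and Tnc (adjusted p = 0.112 and 0.104) and Acta2 (0.276 and 0.0918) lost their calls. Vim (-0.01 ± 0.09) and Fn1 (-0.04 ± 0.13) did not pass the test (adjusted p = 1.0 for both). In captured tissue, fewer cells of a type and less RNA per cell cannot be told apart, here and below.

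Caveolae are membrane pits built from caveolins and cavins. Of 7 measured genes 3 were set lower and 0 higher (median -1.07), and these 3 calls held with either covariate. Cav1, the main caveolin, had signals of 8.68, 9.05 and 9.78 in 4T1 against 11.94 to 12.25 in the 6 others, with no overlap (smaller difference -2.88 ± 0.23, adjusted p = 3.99e-05). Cavin2 was lower by 1.95 ± 0.15 and Cavin1 by 1.32 ± 0.21, while Cav2 missed the threshold (-0.53 ± 0.16, adjusted p = 0.0865). The Cavin1 call rests on its brightest probe set, and its other probe sets were not set apart (-0.34 and -0.26, adjusted p = 0.442 and 0.367). The fatty acid transporter gene Cd36, whose product resides in such membranes, was lower by 3.53 ± 0.31, with 5.04, 4.75 and 5.46 in 4T1 against 7.94 to 9.54. The myelin and membrane protein gene Pmp22 was lower by 3.50 ± 0.23.

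Of 42 collagen and matrix genes 11 were set higher and 1 lower (median 0.60, or 0.54 at background). Over all genes it was 5.88% and 5.82%. Col7a1, the anchoring fibril collagen below epithelia, was at 11.09, 11.17 and 10.05 in 4T1 against 7.01 to 7.79 (smaller difference 3.08 ± 0.29, adjusted p = 0.000113). Col1a1, a chain of the main fibrillar collagen, was at 11.84, 13.42 and 12.54 in 4T1, 8.70, 8.26 and 9.06 in 67NR and 9.70, 10.79 and 9.54 in 66cl4 tumours (2.59 ± 0.42, adjusted p = 0.00346). The 3 lines did not overlap for Col1a1. Ogn, the small proteoglycan osteoglycin, was at 4.90, 4.66 and 4.79 in 4T1, not above background, against 7.38 to 8.01 in 67NR and 10.97 to 12.47 in 66cl4 tumours, at least 7.00-fold lower. With the covariates 9 and 7 matrix genes were set higher. Of 33 matrix proteases and inhibitors 7 were set higher and 3 lower, and 1 and 4 were higher and 0 and 0 lower with the covariates. The collagenase gene Mmp13 was at 10.47, 12.24 and 11.39 against 4.07 to 7.37 (4.77 ± 0.57, adjusted p = 0.000565, but 0.0611 with the scan file number and 0.0711 with the hybridization controls). The inhibitor gene Timp2 was lower by 0.80 ± 0.13, a call that ended with either covariate (adjusted p = 0.0745 and 0.0591). Without 67NR replicate 2 or 4T1 replicate 2 the count of proteases set lower fell as far as 1.

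**Figure D3:**
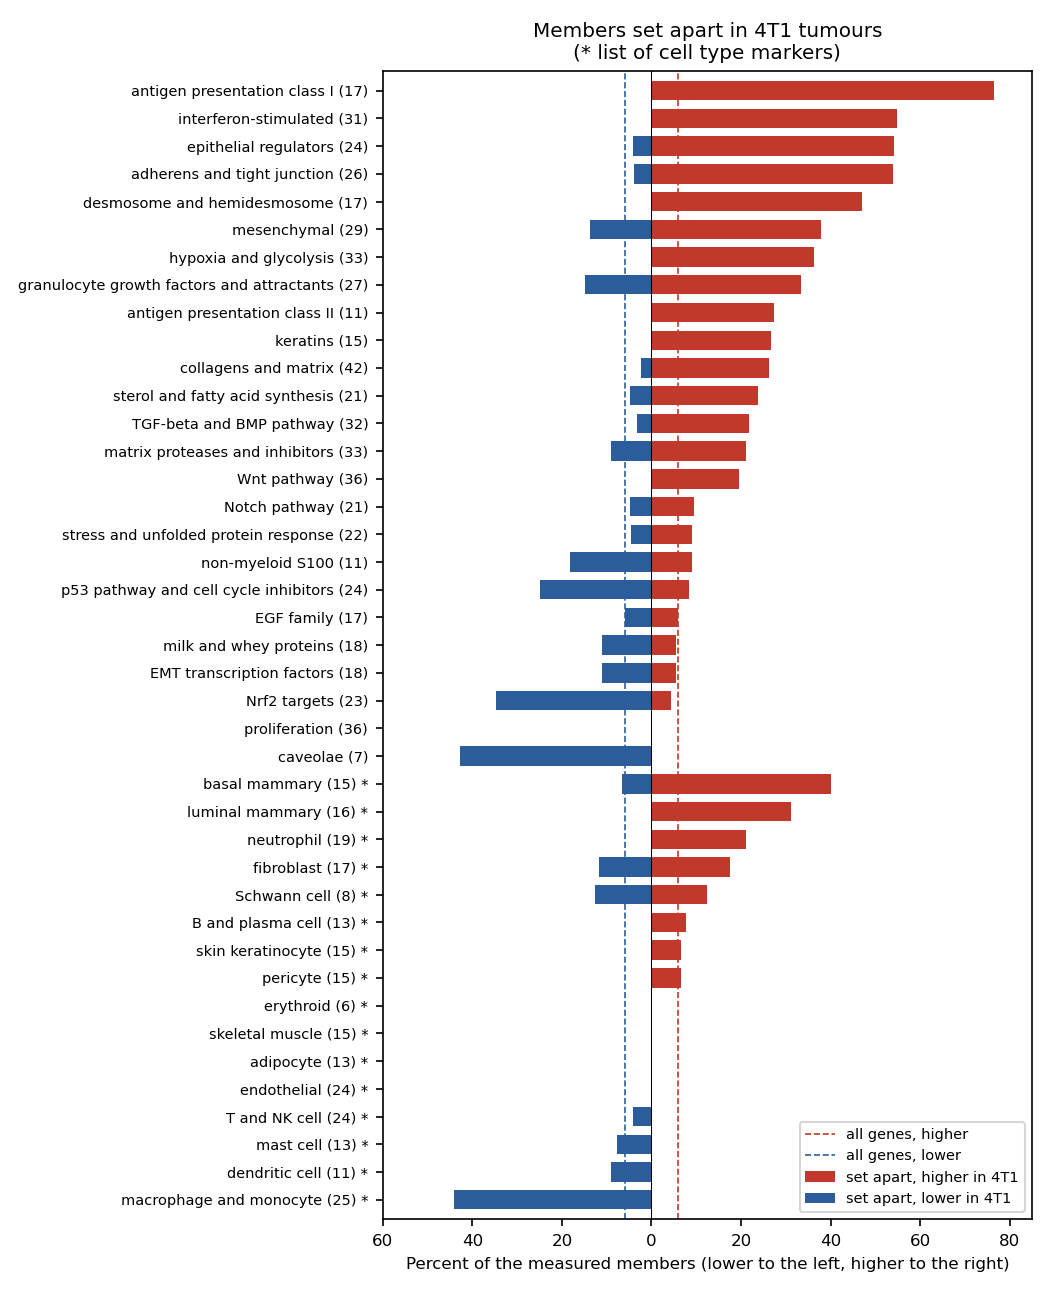
Percent of the measured members of each gene list set higher (right, red) or lower (left, blue) in 4T1 than in both other lines, with the number measured in brackets and the shares over all genes as dashed lines (5.88% and 5.82%). Lists of class I, interferon and epithelial genes reach furthest to the right, and caveolae, macrophage and Nrf2 target lists furthest to the left.

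Secreted factors that act on granulocytes and monocytes went both ways. Csf3, the granulocyte colony-stimulating factor that drives neutrophil production, had signals of 9.72, 10.55 and 9.79 in 4T1, 5.03, 5.01 and 4.76 in 67NR and 5.25, 5.17 and 4.92 in 66cl4 tumours. The other tumours lay at or just above background and the smaller difference was 4.91 ± 0.21 (adjusted p = 3.22e-07). Lcn2, an iron-siderophore carrier of epithelia and neutrophils, was at 11.91, 12.01 and 12.17 against 5.04 to 7.89 (5.27 ± 0.58, adjusted p = 0.000324, but 0.0631 with the scan file number). The cytokine gene Lif was higher by 2.04 ± 0.23, Il1b by 1.61 ± 0.29 and the epithelial cytokine gene Tslp by 3.89 ± 0.63. Il1a was at least 4.95-fold higher. Lower were the chemokine genes Cxcl12, at 6.73, 8.19 and 7.15 against 9.89 to 12.16 (-2.65 ± 0.31, adjusted p = 0.000537), Ccl2, at 7.50, 7.39 and 7.65 against 9.59 to 11.92 (-2.55 ± 0.40, adjusted p = 0.00278), as well as Ccl7 and the neutrophil attractant gene Cxcl5. In all, 9 of 27 genes of the list were set higher and 4 lower, beside 5.88% and 5.82% of all genes. With the scan file number 2 were higher and 2 lower, with the hybridization controls 4 and 0. Csf3 and Lif were called with both. The calls of Cxcl12 (adjusted p = 0.0848 and 0.0817), Ccl7, Cxcl5, Il1a and Il1b ended with either covariate. That of Ccl2 ended with the hybridization controls (adjusted p = 0.0634) and that of Tslp with the scan file number (adjusted p = 0.0659). Without a covariate another Cxcl12 probe set gave -2.97 (adjusted p = 1.02e-07), and a further one was not set apart (-0.03).

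Markers of the blood cells concerned were measured on the same arrays. Of 25 macrophage and monocyte markers 11 were set lower in 4T1 and 0 higher (median -0.94), beside 5.82% of all genes. Their mean log2 signal per array was 9.36 to 9.63 in 4T1, 10.00 to 10.23 in 67NR and 10.59 to 10.97 in 66cl4 tumours, and no marker was at background in any line. Csf1r, the receptor that macrophages need for survival, gave 11.50, 11.64 and 11.72 in 4T1 against 12.49 to 13.18 (-1.12 ± 0.17, adjusted p = 0.00204). The complement genes C1qa and C1qb, made by macrophages, were lower by 0.81 ± 0.13 and 0.95 ± 0.14, and Cd68 by 0.90 ± 0.12. Beyond the 25 markers, Fcna, a ficolin of macrophages, was at 6.33, 6.79 and 7.06 against 9.95 to 11.89 (-3.48 ± 0.21, adjusted p = 4.08e-06), and the lectin gene Clec10a was lower by 3.37 ± 0.47. With either covariate 0 of the 25 list markers were called by limma. Csf1r then had adjusted p = 0.0996 and 0.0658, C1qa 0.189 and 0.132, and Cd68 0.0985 and 0.148. The smaller differences were then -1.07 and -1.16 for Csf1r, -0.64 and -0.81 for C1qa, and -0.75 and -0.63 for Cd68. Of the 2 genes outside the list, Clec10a lost its call (0.167 and 0.0865) and Fcna kept it.

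Neutrophil markers were set higher for 4 of 19, namely Lcn2, Ngp, Il1r2 and S100a9 (median 0.71), beside 5.88% of all genes. Their mean per array was 7.33 to 7.66 in 4T1, 5.97 to 6.22 in 67NR and 6.19 to 6.90 in 66cl4 tumours. S100a9 was at 10.59, 10.39 and 11.12 against 7.65 to 9.57 (1.79 ± 0.43, adjusted p = 0.0306), while S100a8 overlapped between the lines (1.22 ± 0.54, adjusted p = 0.295). The neutrophil receptor genes Csf3r and Cxcr2 did not set 4T1 apart, with 7.96 to 8.18 and 5.62 to 6.21 in 4T1 against 7.70 to 8.41 and 5.19 to 5.96 in the others. With the scan file number 0 neutrophil markers were called and with the hybridization controls 2. The count was lowest, at 2, when a single array was left out, and 66cl4 replicate 3 and 4T1 replicate 2 each moved it by more than 1.5 times.

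For markers of other cells in the captured tissue, the shares to compare with are 5.88% of all genes set higher and 5.82% set lower. Except for fibroblast markers, each list had at most 1 call per direction, which in lists this short cannot be told from those shares. Of 24 endothelial markers 0 were set apart, and for 18 of them the 4T1 mean lay between those of the other lines. Their mean per array was 7.27 to 7.46 in 4T1, 8.45 to 8.79 in 67NR and 6.81 to 7.08 in 66cl4 tumours. Of T and NK cell markers 1 of 24 was set lower, the NK receptor gene Ncr1 (-1.24 ± 0.19). Of 13 mast cell markers only the protease gene Cpa3 was set lower (-1.24 ± 0.27). Of 11 dendritic cell markers Ccr7 was lower. Both calls ended with the scan file number and with the hybridization controls (adjusted p = 0.105 and 0.172 for Cpa3, 0.444 and 0.496 for Ccr7). That of Cpa3 also ended without 66cl4 replicate 2 or 3 or 4T1 replicate 2, and that of Ccr7 without 66cl4 replicate 3 or 4T1 replicate 1 or 3. Of 15 pericyte markers Acta2 was set higher, and of 13 B and plasma cell markers Sdc1, which epithelial cells express too, was set higher. The calls of Acta2 and Sdc1 ended with either covariate. Both used the brightest probe set. Without a covariate the other Sdc1 probe sets were higher by 1.82, 1.81 and 1.10 (adjusted p = 0.00017, 0.000206 and 0.00104). The plasma cell gene Mzb1 was uneven, at 7.56, 9.48 and 5.0 in the 4T1 tumours. Of 17 fibroblast markers Col1a1, Col3a1 and Mfap5 were set higher and Pdgfra and Cd34 lower, and of these only Col1a1 was called with a covariate. Adipocyte (13), skeletal muscle (15) and erythroid (6) markers had 0 calls by limma in either direction. Of 8 Schwann cell markers Mbp was higher and Pmp22 lower. The Mbp call rests on its brightest probe set, and none of its other probe sets was set apart (adjusted p of 0.173 or more).

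Markers of the mammary layers overlap with the epithelial lists above and so add no separate evidence. Luminal markers were set higher for 5 of 16, Krt7, Krt18, Krt19, Gata3 and Foxa1, with a mean per array of 7.32 to 7.41 in 4T1, 5.80 to 5.94 in 67NR and 6.15 to 6.38 in 66cl4 tumours. Basal markers were set higher for 6 of 15, Krt14, Sfn, Cnn1, Procr, Acta2 and Itgb4, and Mylk was set lower. Their mean was 6.71 to 6.80 in 4T1 against 5.90 to 6.01 and 5.78 to 6.00. With the scan file number and the hybridization controls 4 and 4 luminal and 2 and 3 basal markers were set higher, and Foxa1, Cnn1, Acta2 and Itgb4 lost their calls with either. Krt14, a keratin of basal cells, gave 9.40, 8.98 and 9.00 against 4.53 to 5.66 (3.89 ± 0.21, adjusted p = 1.85e-06). The basal keratin gene Krt5 lay at 5.04 to 5.18 in 4T1, and the basal factor gene Trp63, the progesterone receptor gene Pgr and the alveolar factor gene Elf5 were above background on no array. Of 15 skin keratinocyte markers only Krt14 was set higher. Of milk and whey proteins Wfdc2 was set higher, and the casein gene Csn3 (-3.27 ± 0.38) and Mfge8 (-0.46 ± 0.11) were lower. The Mfge8 call ended under 12 of 17 alternatives, among them both covariates (adjusted p = 0.495 and 0.487) and the omission of any array but 67NR replicate 2, while that of Csn3 held under all of them.

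Genes of peptide presentation by class I molecules were higher in 4T1. These molecules display fragments that the immunoproteasome cuts and the TAP transporter carries into the endoplasmic reticulum, and interferon raises the genes. Of 17 measured 13 were set higher and 0 lower (median 0.85). Psmb8, an immunoproteasome subunit, was at 12.31, 12.16 and 12.10 in 4T1, 10.53, 10.15 and 10.43 in 67NR and 8.55, 8.79 and 8.87 in 66cl4 tumours (1.82 ± 0.13, adjusted p = 1.69e-05). The 3 lines did not overlap. The subunit gene Psmb10 was higher by 1.64 ± 0.12, Psmb9 by 1.58 ± 0.12 and the transporter gene Tap2 by 1.27 ± 0.09. The class I heavy chain genes H2-K1 and H2-D1 were higher by 0.53 ± 0.13 and 0.43 ± 0.10. They belong to a family of near-identical genes, and their calls ended with either covariate (adjusted p = 0.661 and 0.811 for H2-K1). B2m, which encodes the light chain, was not set apart (0.07 ± 0.09). With either covariate 6 class I genes stayed called, and without a 67NR array the count fell to as few as 8, with 67NR replicates 2 and 3 each moving it by over 1.5 times.

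Of 31 interferon-stimulated genes 17 were set higher and 0 lower (median 1.19). Oasl2 was at 9.40, 9.43 and 9.68 in 4T1, 8.18, 7.96 and 7.73 in 67NR and 6.43, 6.52 and 6.80 in 66cl4 tumours (1.54 ± 0.15, adjusted p = 0.000124). The deconjugating enzyme gene Usp18 was higher by 2.52 ± 0.28, the RNA sensor gene Ifih1 by 1.15 ± 0.13 and the transcription factor gene Irf1 by 0.96 ± 0.12. With either covariate 3 were called, Oasl2 among them. Irf1 then had adjusted p = 0.0736 and 0.0818. Of 11 class II genes H2-Oa, Ciita and H2-DMa were set higher, while the invariant chain gene Cd74 was at 13.62 to 13.88 in 4T1 and 13.45 to 13.86 in 67NR and so did not set 4T1 apart. With the covariates 1 and 0 of these 11 genes were called. H2-Oa then had adjusted p = 0.218 and 0.117 and Ciita 0.0862 and 0.189, and H2-DMa had 0.25 with the hybridization controls. The call of H2-DMa also ended without any of the 67NR arrays, 66cl4 replicate 2, 4T1 replicate 1 or 4T1 replicate 2. H2-DMb2, a class II gene outside the 11, was set higher by 2.59 (adjusted p = 0.000172). Its call held with the scan file number (adjusted p = 0.0223) and with the hybridization controls (adjusted p = 0.011).

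**Figure D4:**
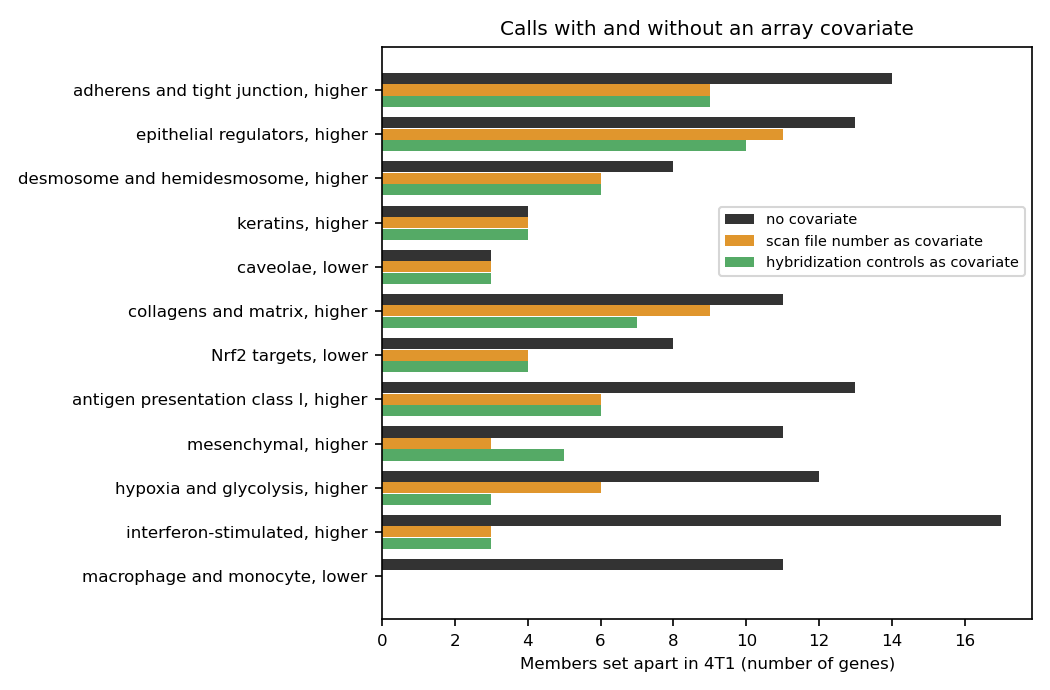
Number of list members set apart in 4T1 with no covariate, with the scan file number and with the mean signal of the hybridization controls as a covariate. Keratin and caveolae counts stay at 4 and 3, junction genes go from 14 to 9 and 9, interferon-stimulated genes from 17 to 3 and 3, and macrophage markers from 11 to 0 and 0.

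Genes that low oxygen induces included 12 of 33 set higher and 0 set lower (median 0.91), beside 5.88% and 5.82% of all genes. Car12, a membrane carbonic anhydrase, was at 7.93, 7.86 and 7.52 in 4T1 against 3.91 to 4.28 and at least 7.10-fold higher (adjusted p = 2.58e-07). Aldoc, a glycolytic aldolase, was at 9.84, 9.26 and 9.37 against 4.93 to 5.81 (3.95 ± 0.21, adjusted p = 2.18e-06), and Egln3, an oxygen-sensing hydroxylase, was higher by 3.08 ± 0.17. Car9 was not set apart, since 66cl4 tumours (9.99 to 10.76) reached the 4T1 level (9.98 to 10.43) while 67NR tumours (5.10 to 5.97) did not. Vegfa overlapped between 4T1 and 67NR tumours. With the covariates 6 and 3 genes stayed called, Car12, Aldoc and Egln3 among both. Of 21 genes of sterol and fatty acid synthesis Fasn, Sqle, Fdft1, Srebf2 and Cyp51 were set higher and Dhcr7 lower, with 3 and 4 higher under the covariates. Leaving out 66cl4 replicate 1 or 3 or 4T1 replicate 2 also moved that count by over 1.5 times, to as few as 3.

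Several genes that detoxify reactive compounds were set lower. The factor Nrf2 induces many genes of this kind. Of 23 listed targets 8 were set lower and 1 higher (median -0.23), beside 5.82% and 5.88% of all genes, and 4 stayed lower with either covariate. Aldh3a1, an aldehyde dehydrogenase, was at 3.91, 3.71 and 4.34 in 4T1, 8.38, 7.98 and 8.40 in 67NR and 10.80, 10.82 and 11.09 in 66cl4 tumours. It was at least 9.72-fold lower in 4T1 (adjusted p = 3.2e-07). Ephx1, an epoxide hydrolase, was at 6.04, 6.64 and 6.44 against 9.70 to 10.81 (-3.59 ± 0.19, adjusted p = 1.5e-06). The glutathione transferase genes Gstm1 and Gstt1 were lower by 3.03 ± 0.26 and 3.81 ± 0.20, the cytochrome gene Cyp2c55 by 3.67 ± 0.36 and the ketosteroid reductase gene Akr1c13 by 3.59 ± 0.20. These enzyme families have close relatives that may share probes. Other Nrf2 targets were not set apart, among them Nqo1 and Hmox1, whose 4T1 means lay between those of the other lines. The gene of Nrf2 itself, Nfe2l2, was set lower, a call that ended with either covariate.

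Of 24 genes of the p53 pathway and cell cycle inhibition 6 were set lower and 2 higher (median -0.62). Over all genes it was 5.82% and 5.88%. Values of the p53 gene itself are not given here. Ccng1, a cyclin that p53 induces, was at 8.98, 9.10 and 8.88 in 4T1 against 10.22 to 11.23 (-1.46 ± 0.15, adjusted p = 0.000236). Eda2r, a death receptor that p53 induces, was at least 2.33-fold lower, and Zmat3 was lower by 0.88 ± 0.12. These 3 calls held with either covariate, while those of Sesn1, Rb1 and Cdkn1a ended. Mdm2, another target, was at 9.07 to 9.14 in 4T1, against 9.23 to 9.34 in 66cl4 and 10.06 to 10.28 in 67NR tumours (-0.21 ± 0.09, adjusted p = 0.313). Those higher were Perp and Fas. Perp kept its call with either covariate, while that of Fas ended (adjusted p = 0.497 and 0.354), as it did without 67NR replicate 2 or 3, any of the 66cl4 arrays or 4T1 replicate 2. No proliferation gene of 36 was set apart by limma, and in the plain contrast 4 were higher and 0 lower (median 0.18). The cycling marker Mki67 was at 10.17 to 10.80 in 4T1 and 10.29 to 10.73 in the others.

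Of 36 Wnt pathway genes 7 were set higher and 0 lower (median 0.12, or 0.09 at background), beside 5.88% and 5.82% of all genes. The ligand gene Wnt10a was at 8.18, 9.65 and 9.45 in 4T1 against 5.26 to 5.64 (3.52 ± 0.31, adjusted p = 7.29e-05). The secreted antagonist gene Sfrp1 was at 8.69, 9.45 and 8.92 against 5.11 to 6.15 (3.23 ± 0.28, adjusted p = 5.71e-05), the receptor gene Fzd7 was higher by 1.31 ± 0.16 and Dkk3 by 1.88 ± 0.31. The pathway's feedback genes Axin2 and Lef1 were not set apart. With the covariates 4 and 4 Wnt genes stayed called, and without 66cl4 replicate 3 the count was lowest, at 4. Of 32 TGF-beta and BMP genes 7 were set higher and 1 lower (median 0.29), with 5 and 4 higher and 1 and 1 lower under the covariates. Inhba, the activin subunit, was at 8.81, 10.06 and 9.01 against 6.07 to 6.71 (2.66 ± 0.28, adjusted p = 0.00022), and the inhibitor gene Skil and the protease gene Bmp1 were higher by 1.56 ± 0.15 and 1.88 ± 0.20. The coreceptor gene Tgfbr3 was at 7.08, 7.25 and 7.31 against 10.33 to 11.62 (-3.19 ± 0.15, adjusted p = 5.99e-07). Of 21 Notch genes Dll1 and Jag1, both ligands, were set higher and Rfng lower. Of 17 EGF family genes Tgfa was set higher by its brightest probe set (0.73, adjusted p = 0.0258) and Nrg1 lower. Another Tgfa probe set had means of 8.5 in 4T1, 3.77 in 67NR and 3.64 in 66cl4 tumours and was higher by 4.73 (adjusted p = 1.33e-07). A further Tgfa probe set was not set apart (0.43, adjusted p = 0.1). Of 22 stress and unfolded protein genes Atf3 and Hspa5 were higher and Sdf2l1 lower. Such small Notch, EGF and stress counts cannot be told from the 5.88% and 5.82% of all genes set higher and lower. With either covariate the calls of Atf3, Hspa5, Jag1, Nrg1, Rfng and Sdf2l1 ended, as did that of the brightest Tgfa probe set.

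Of the 12 genes set higher with the largest smaller differences that had at least 1 array above background in every line, those not yet named include Tnnt2, the cardiac troponin T gene, at 11.71, 11.46 and 11.25 in 4T1 against 4.36 to 6.44. Its smaller difference was 6.03 ± 0.52 (adjusted p = 6.28e-05). Moxd1, a monooxygenase-like protein gene, was higher by 5.60 ± 0.14, the PDGF receptor-like gene Pdgfrl by 5.65 ± 0.29 and the membrane protein gene Serinc2 by 4.83 ± 0.15. Nt5e, which encodes the surface enzyme CD73 that makes adenosine, was at 11.65, 11.93 and 11.65 against 5.19 to 7.20 (4.79 ± 0.36, adjusted p = 2.55e-05). Of the non-myeloid S100 genes S100a14, an epithelial member, was higher by 2.40 ± 0.16, and S100a4 and S100a13 were lower.

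The genes set apart were not spread evenly over the chromosomes. On chromosome 19, 11.7% of 609 genes were set higher and 3.94% lower, and on chromosome 8, 11.3% of 932 were set higher and 2.25% lower, beside 5.88% and 5.82% of all genes. Chromosomes 9 and 15 had 8.38% and 8.15% set higher, and 3.99% and 7.87% set lower. Set lower were 8.97% on chromosome 13, 8.14% on chromosome 10 and 8.11% on chromosome 3. Among the 11697 genes above background on all 9 arrays, the median on chromosome 8 was 0.29 against 67NR and 0.13 against 66cl4, beside -0.02 and -0.04 over all chromosomes, and 70.7% of its 622 genes were higher in 4T1 than the mean of both lines. The chromosome 8 median of the single 4T1 arrays was 0.26, 0.20 and 0.16. On chromosome 13 the medians were -0.14 and -0.26. DNA was not measured.

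**Figure D5:**
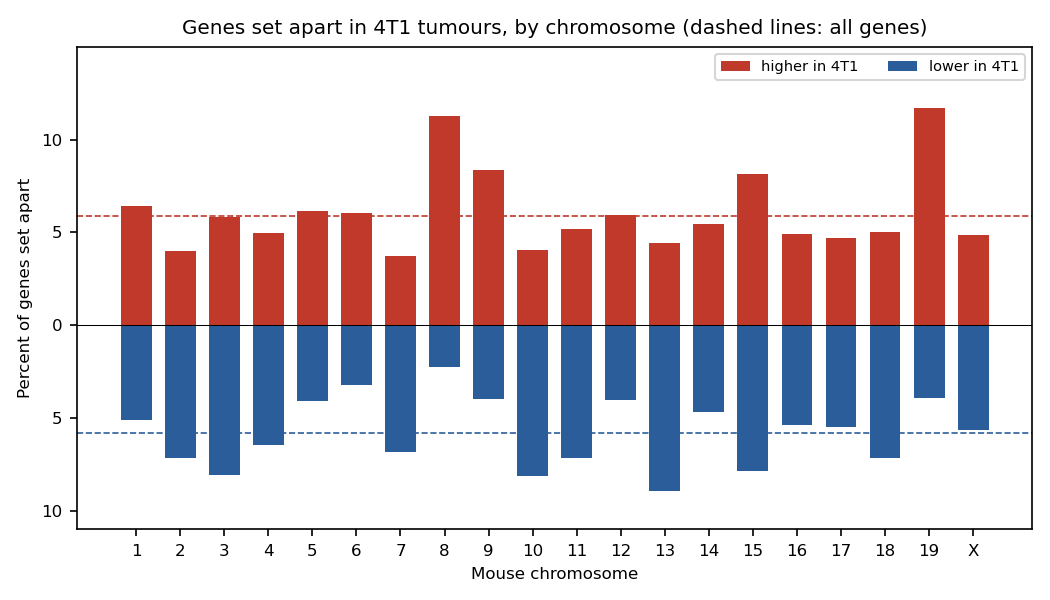
Percent of the measured genes of each mouse chromosome set higher (up, red) or lower (down, blue) in 4T1 than in both other lines, with the shares over all genes as dashed lines. Chromosomes 8 (11.3%) and 19 (11.7%) have the tallest red bars and chromosome 8 the shortest blue bar (2.25%).

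In 28 places at least 3 measured neighbours in the gene order of GRCm38.p6 were all set apart in 1 direction. The class II and class I region of chromosome 17 held a run of 6, H2-DMa, H2-DMb2, Psmb9, Tap1, Psmb8 and Tap2, set higher by 0.66 to 2.59. Another run of 6 lay on chromosome 9, from Phxr4 to Endod1, set higher by 0.85 to 1.52. Chromosome 8 held 4 runs set higher, among them Prdx2, Junb and Hook2, and chromosome 19 held 3, among them Rcl1, Jak2 and Insl6. The interferon genes Parp14, Dtx3l and Parp9 formed a run on chromosome 16. Lower runs included C1qb, C1qc and C1qa on chromosome 4 and Cd300a, Cd300lb and Cd300ld, receptors of myeloid cells, on chromosome 11. Several of these genes lost their call with a covariate, among them all 3 C1q genes and, of the chromosome 9 run, Phxr4, Sesn3 and Endod1.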

How the data were processed

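Total RNA of laser-captured primary tumours was hybridized to 9 Affymetrix arrays, 3 mice per line. The deposited log2 signals were used as the authors gave them. The log2 scale was read from the values. Which normalization they went through is stated neither by the labels nor by the file headers. The arrays' number limits the precision, and p-values measure the spread between these mice. All probe sets were fitted with limma 3.58.1 in R 4.3.3, group means over all 9 arrays, with no filter. The contrast was 4T1 minus the mean of both other line means. A gene was set apart when both differences had 1 sign, with the larger of both p-values adjusted by Benjamini-Hochberg over all probe sets (threshold 0.05). Each of 18193 genes with a single symbol is given by its brightest probe set. Background is the highest of 27 unspiked bacterial control probe sets per array. Script steps were tested on simulated data. The members and gene lists were chosen with earlier results of these data known. Named genes were, per direction, the 12 largest smaller differences and 8 genes detected on 1 side alone, 4 per list, fixed epithelial and mesenchymal genes, and runs of neighbours. Further list members were named, and the promoters of Epcam, Cldn4, Cldn7, Ap1m2, Rab25 and Spint2 chosen, after their values were seen. Alternatives were quantile normalization, a filter on low values, other variance priors, array weights, the mean of probe sets, other call rules and backgrounds, covariates, the replicate block and leaving out each array.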

Additional observations from a re-analysis of the deposited data

How the results depend on the processing

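In the contrast of 4T1 with the mean of both lines, 2413 genes were higher and 2862 lower. The scan file number as a covariate left 1460 lower, and the hybridization controls left 1160 higher and 1050 lower. Of all genes, 5.88% were set higher and 5.82% lower. The scan file number left 2.68% and 1.62%, the hybridization controls 2.07% and 1.22%, and a smaller difference of at least 1 left 3.03% and 1.87%. The 98 genes detected in 4T1 alone became 175 with the background raised by 1 and 62 with the control median plus 1 as background, and the 60 detected in the other lines alone became 92 and 27. Leaving out single arrays gave 1957 to 2407 genes higher and 2313 to 2644 lower in the contrast, 4.51% to 6.05% set higher and 4.24% to 5.05% set lower, and 98 to 115 and 61 to 88 detected on 1 side alone. Among 220 results on single named genes, 85 lost their call with the scan file number and 93 with the hybridization controls, and none changed direction under any alternative run. Same-numbered mice of different lines did not deviate together (correlations of -0.121 to 0.151), and the main fit did not pair them. Such correlations cannot show whether same-numbered arrays shared a processing step. With the replicate block, 978 genes were set higher and 915 lower, and the contrast had 2295 and 2662. The block also called Zeb2 lower (adjusted p = 0.00767), which made 3 transition factors set lower, and called 9 class I genes against 13. The causes of these changes were not tested.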
